A study of Mus musculus with 48 samples.

Results

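Proliferating T cells are T lymphocytes in the act of dividing, and here they are cells of a mouse brain tumor that carried RNA of the T cell receptor complex together with RNA of mitosis. A cell was taken when it had at least 500 detected genes, at least 2 unique molecular identifiers (UMIs) over Cd3e, Cd3d and Cd3g together, at least 2 UMIs over Mki67 and Top2a together, and no UMI of Foxp3 or Ms4a7. The rule took 337 of the 8726 cells with at least 500 genes. Library shNC 1 held 100 of them, shNC 2 held 89, shSELP 1 held 56 and shSELP 2 held 92. Of the 337 cells, 212 had Cd8a without Cd4 and form the CD8 class, 103 had Cd4 without Cd8a and form the CD4 class, 2 had both and 20 had neither.

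T cells divide after their receptor meets antigen, and the daughters of CD8 T cells kill target cells with perforin and granzymes while CD4 T cells act largely by secreting cytokines. Mki67 encodes a protein that coats mitotic chromosomes, and Top2a encodes the topoisomerase that untangles DNA before chromosomes part. Foxp3 marks regulatory T cells and Ms4a7 is a macrophage gene, so both were kept out.

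The libraries come from glioblastomas grown from the mouse line GL261, whose cells carried either a control hairpin (shNC) or a hairpin against Selp, the gene of P-selectin (shSELP), with 2 libraries per group. The methods describe implantation into the brains of male C57BL/6 mice aged 6 weeks and a pool of 3 brains per group, and the tumors were taken on day 16 by the sample labels but on day 17 by the methods. Myeloid, other immune and tumor fractions were remixed before loading, so the share of T cells among all cells does not describe the tumor. Shares within T cells do not depend on the mixing ratio as far as all T cells came from the same fraction, which was not tested. The hairpins sit in the implanted tumor cells, so the T cells of both groups are unmodified host cells, and it is not stated if each library had its own pool of brains.

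The cells taken are T cells by more than the genes that chose them. Of the 337 cells, 332 carried a UMI of Trac, Trbc1 or Trbc2, none carried Trdc of gamma-delta T cells and none carried Ncr1 of natural killer cells. Cd8b1, which pairs with Cd8a and was not used to form the classes, was present in 206 of the 212 cells of the CD8 class and in 8 of the 103 cells of the CD4 class. A Cd8a UMI was found in 63.5% of proliferating T cells (median 11954 UMIs per cell) against 0.681% of 3379 C1q macrophages without Cd3 (median 12236 UMIs), and a Cd4 UMI in 31.2% against 1.15%.

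Selecting on 2 UMIs of mitotic RNA gathers cells of more than 1 cell cycle state. Summed over the S phase and G2/M gene lists, cells with 0 UMIs of Mki67 and Top2a had a median of 3275 CPM (UMIs scaled to a common total), cells with 1 UMI 3613 CPM and the 87 cells with exactly 2 UMIs 3506 CPM, just outside and just inside the threshold. Of those 87 cells 16.1% lay above 6574 CPM, the level passed by only 5.02% of the 916 T cells with 0 UMIs. The share was 44.3% of 61 cells with 3 or 4 UMIs, 89.7% of 39 cells with 5 to 9 UMIs and 100% of 150 cells with 10 or more. Cells chosen on 2 UMIs are therefore a mixture, in which 226 of 337 cells (67.1%) stand above that level. By library the share was 83.0% in shNC 1, 70.8% in shNC 2, 57.1% in shSELP 1 and 52.2% in shSELP 2, so both shSELP libraries lie below both shNC libraries. The same order holds for T cells with 0 mitotic UMIs (9.05, 6.28, 2.43 and 2.39%) under the 1 limit used for all libraries, and at 5 or more UMIs nearly all cells of every library lie above it (100, 98.0, 96.3 and 95.3%). The median cycle level at 5 or more UMIs was 16402, 16729, 17299 and 19435 CPM, with both shSELP libraries above both shNC libraries. A Mki67 UMI was present in 73.3% of proliferating T cells and in 29.0% of the C1q macrophages, and the source of the latter was not tested.

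**Figure D1:**
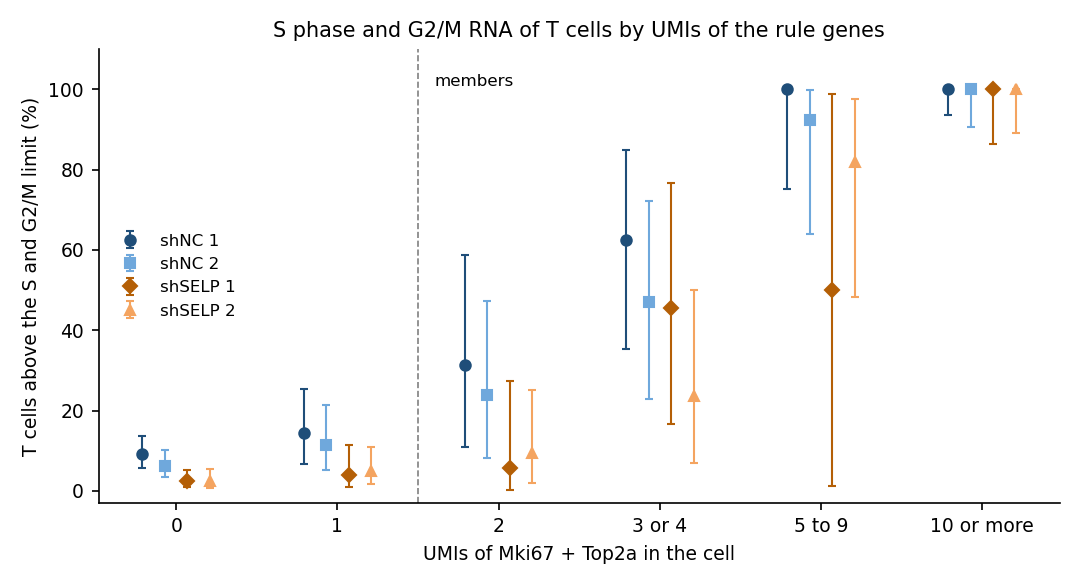
Share of T cells above the S phase and G2/M limit of 6574 CPM by their UMIs of Mki67 and Top2a, by library with 95% intervals. Over all libraries it is 16.1% at 2 UMIs and 100% at 10 or more.

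Under the rule used a minority of T cells proliferated in every library, and the groups overlapped, but several other ways of counting removed the overlap. The proliferating share of T cells without Foxp3 and Ms4a7 was 26.0% in shNC 1 (95% interval 21.7 to 30.7), 22.4% in shNC 2 (18.4 to 26.8), 14.9% in shSELP 1 (11.4 to 18.9) and 22.8% in shSELP 2 (18.8 to 27.2). Library shSELP 1 is the low one, and shSELP 2 lies between the shNC libraries. The mean was 24.2% (SD 2.60) for shNC and 18.8% (SD 5.60) for shSELP, a difference of -5.39 points with an exact two-sided p of 0.667. Asking for at least 5 UMIs gave 17.7, 12.8, 7.16 and 10.6%, where the groups no longer overlap and p is 0.333, the smallest value that 2 against 2 libraries can give. The groups did not overlap either with at least 3 UMIs, without Scrublet calls or without cells with myeloid UMIs, each at p 0.333. Accepting 1 UMI gave 42.4, 39.9, 34.5 and 48.3%, which turns the difference to 0.176 points. Median depth per proliferating T cell was 12552.5, 12035.0, 9000.5 and 13367.0 UMIs in the same order of libraries, lowest where the share was lowest, and with every cell thinned to 2000 UMIs the shares were 14.6, 9.79, 6.63 and 7.60%, again without overlap (p 0.333). The effect of depth and of 1 library on the share was not tested.

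**Figure D2:**
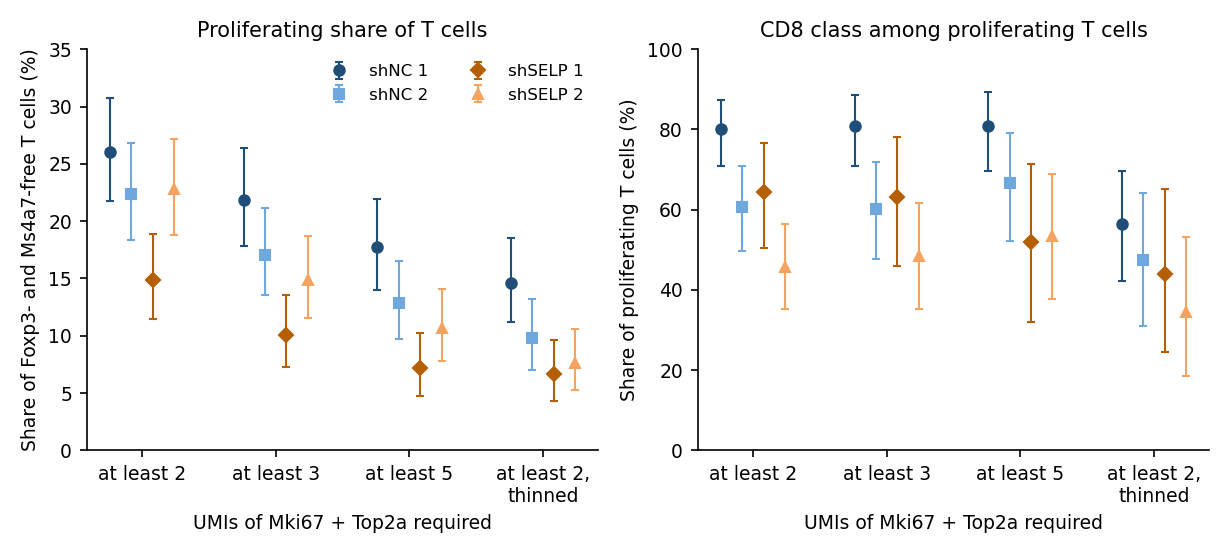
Proliferating share of T cells and share of the CD8 class among proliferating T cells, by library with 95% intervals. The CD8 class makes up 80.0% of proliferating T cells in shNC 1 and 45.7% in shSELP 2.

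Both classes held cells above the mitotic threshold, and the CD8 class supplied most of the proliferating T cells in 3 of the 4 libraries under the rule used. It made up 80.0% of them in shNC 1 (80 of 100), 60.7% in shNC 2 (54 of 89), 64.3% in shSELP 1 (36 of 56) and 45.7% in shSELP 2 (42 of 92). The groups overlap, with a difference of -15.4 points and p 0.667. In shSELP 2 the classes were close, with 44 CD4 cells or 47.8%, against 19, 28.1 and 26.8% in the other libraries. There the order turned at 3 or more mitotic UMIs (29 CD8 and 28 CD4 cells) and at 5 or more (23 and 17), and without Scrublet calls each class had 42 cells. At 5 or more UMIs the CD8 class led in all 4 libraries with 80.9, 66.7, 51.9 and 53.5%, and the groups did not overlap (-21.1 points, p 0.333). Measured within its own class, 34.9, 27.7, 15.2 and 29.4% of CD8 cells proliferated (shNC 1, shNC 2, shSELP 1, shSELP 2), and 20.4, 23.4, 17.4 and 23.5% of CD4 cells. CD8 cells of shSELP 1 therefore have the lowest share of the 8 values. Of the Foxp3-positive T cells 25.5, 33.3, 27.8 and 35.5% passed the same mitotic threshold.

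The genes that define the cells were expressed as follows, with libraries in the order shNC 1, shNC 2, shSELP 1, shSELP 2 here and below. Mki67 stood at 387, 366, 436 and 426 CPM and Top2a at 515, 535, 634 and 535 CPM. Cd3e stood at 621, 506, 778 and 688 CPM, and Cd3g at 1432, 1403, 1630.4 and 1684 CPM. All of these were used to choose the cells, so no test was made on them. Gzmb, which codes for granzyme B and was not part of the rule, reached 3833, 3338, 2923 and 1753 CPM, high in both shNC libraries and lowest in shSELP 2. A Gzmb UMI was present in 68.0% of proliferating T cells, in 56.1% of other T cells (median 5022.5 UMIs) and in 3.40% of the C1q macrophages. With all cells thinned to 2000 UMIs these shares were 58.2, 51.0 and 0.786%.

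Compared with T cells that showed no mitotic RNA, proliferating T cells carried more RNA for copying DNA and making nucleotides. They carried less RNA of interferon-stimulated genes, of naive and memory T cells, and of several chemokines. Granzyme B did not separate them. The comparison sets the 337 cells against 916 T cells with 0 UMIs of Mki67 and Top2a within each library. Of 7650 genes tested, 932 were higher (12.2%) and 894 lower (11.7%) in the proliferating cells by edgeR's quasi-likelihood test at an adjusted p under 0.05.

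Because the cells were selected on mitotic RNA, the cell cycle lists describe that choice and were not tested. The 43 genes of the S phase list summed to 1261, 1074, 998 and 1147 CPM in other T cells and 4177, 3703, 3558 and 3375 CPM in proliferating T cells. The G2/M list went from 2540.3, 2201, 2071 and 2181 CPM to 10428, 9239, 9474 and 9046 CPM, where Hmgb2 was its most abundant gene with 3513, 2999, 3131 and 3005 CPM. Every library is high among the proliferating cells, without overlap. The median log2 fold change was 2.09 over 42 S phase genes, 3.67 over 48 G2/M genes, 2.39 over 22 chromatin assembly genes and 1.24 over 28 cyclins and cycle regulators. In that last list Btg1, Btg2, Ccnd2 and Cdkn1b, which hold cells back from or lead them into the cycle, had the lowest values.

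Replication and mitosis genes outside those lists also led the tested genes. Pclaf, which binds the replication clamp, went from 23.5, 10.5, 4.79 and 16.4 CPM to 696, 563, 484 and 460 CPM, up by a log2 value of 5.28 (adjusted p 4.6e-10). Spc24 of the kinetochore went from 13.9, 5.99, 3.99 and 5.91 CPM to 150.2, 121, 173 and 131 CPM (4.24). Both rose in all 4 libraries. The histone chaperone Asf1b rose by 3.73 (adjusted p 7.69e-09), the condensin subunit Smc2 by 3.34 (1.42e-09) and the spindle protein Prc1 by 3.10 (3.64e-08). Rfc4 and Mcm7, which load and open the replication fork, rose by 2.92 and 2.49 (both 8.9e-08). Incenp and Racgap1 of cell division rose by 2.50 (9.79e-08) and 2.48 (3.4e-08). All of these were higher in the proliferating cells of every library, and like the lists they describe cells that were chosen on mitotic RNA.

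Genes of nucleotide supply were higher in the proliferating cells. Of 18 tested genes of nucleotide and one-carbon synthesis 13 were higher and none lower, with a median log2 fold change of 0.86 against -0.03 over all genes. Tk1, which salvages thymidine, went from 17.4, 11.98, 6.39 and 10.5 CPM to 141, 112, 90.8 and 84.7 CPM (3.16, adjusted p 1.93e-08). It is high in all 4 proliferating sums. Dut rose by 1.67, and Shmt2 and Mthfd2 of mitochondrial folate metabolism rose by 1.18 and 1.16. Glycolysis had 7 of 17 genes higher and 1 lower (median 0.20). Ldha stood at 1001, 759, 592 and 706 CPM in other T cells and 1627, 1123, 797 and 924 CPM in proliferating T cells (0.49), while Hif1a fell by 0.58.

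**Figure D3:**
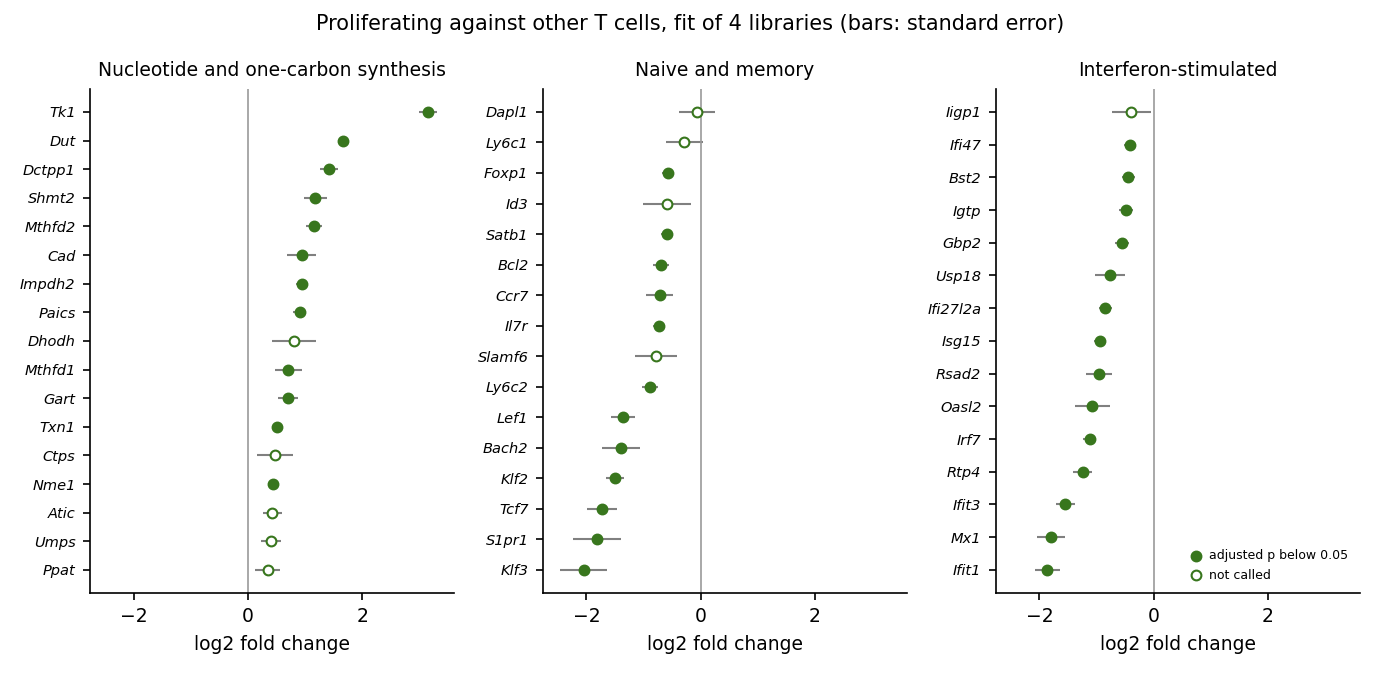
Log2 fold change of genes in proliferating against other T cells from the nucleotide synthesis, naive and memory, and interferon-stimulated lists. Tk1 stands at 3.16, Tcf7 at -1.72 and Ifit1 at -1.86.

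Genes of quiescent and memory T cells were low in the proliferating cells. Of 16 tested genes of this list 12 were lower and none higher, with a median of -0.76. Tcf7, the transcription factor of memory and stem-like T cells, stood at 29.6, 57.7, 29.6 and 43.3 CPM in other T cells and 13.3, 7.84, 16.0 and 13.7 CPM in proliferating T cells (-1.72). Klf2, which keeps T cells resting and drives exit receptors, went from 127, 184, 130.2 and 104 CPM to 57.4, 49.6, 28.5 and 51.1 CPM (-1.50, adjusted p 1.15e-05). The proliferating cells are the low ones for both genes in all 4 libraries. S1pr1, the receptor for leaving tissue, was at -1.82, Lef1 at -1.36, Il7r at -0.74 and Ccr7 at -0.71. With only CD8 cells on both sides 7 of 11 tested genes of the list were still lower, beside 649 of all 5816 genes tested there.

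Interferon-stimulated genes were low as a block. Of 15 tested genes 14 were lower in proliferating T cells and none higher, with a median of -0.94, and Iigp1 was the gene that was not called. Ifit1 went from 56.7, 127, 55.1 and 101 CPM to 5.89, 35.7, 33.8 and 28.2 CPM, which is -1.86 on the log2 scale (adjusted p 3.05e-05). Ifit3 went from 44.5, 145, 51.9 and 77.5 CPM to 10.3, 42.7, 30.3 and 31.3 CPM (-1.54). Within each library the proliferating cells are the low ones. Isg15 was at -0.94 and Irf7 at -1.12. Without shNC 1 the number of lower genes in the list was 9.

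Chemokines and homing receptors stood lower too. Ccl5, which attracts T cells and macrophages, stood at 6268, 5460, 9359 and 5645 CPM in other T cells and at 1376, 1311, 4852 and 1181 CPM in proliferating T cells (-1.90, adjusted p 7.07e-07). Library shSELP 1 is the high one on both sides. Ccl4 went from 1857, 757, 769 and 632 CPM to 337, 232, 427 and 522 CPM (-1.36). Of 14 tested cytokine and chemokine genes 7 were lower and 1, Lta, was higher by 0.96. Of 13 homing and adhesion genes 7 were lower and none higher, among them Ccr2 by -1.85, Cxcr4 by -1.53 and Cxcr6 by -0.77. Costimulatory receptors followed the same direction, with 7 of 12 lower and none higher, such as Icos at -0.75, Cd28 at -0.61 and Tnfrsf4 at -0.58. Icos, Cd28 and Tnfrsf4 were also called lower in CD8 than in CD4 proliferating cells. The CD8 class made up 80.0, 60.7, 64.3 and 45.7% of proliferating T cells and 51.6, 45.2, 59.9 and 33.5% of other T cells. How far this difference in class shapes the values here was not tested. Tnfsf8, the ligand of CD30, was at -1.86 (adjusted p 1.62e-05) and Ramp3 at -1.29, and Ssh2 went from 108.1, 138, 90.3 and 116 CPM to 32.4, 38.3, 53.4 and 68.6 CPM (adjusted p 9.23e-05).

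The killing program was present in both sets of cells. Gzmb stood at 3699, 2333, 3171 and 1918 CPM in other T cells and at 3833, 3338, 2923 and 1753 CPM in proliferating T cells, with overlap (log2 fold change 0.05, adjusted p 0.741). Of 15 tested cytotoxic genes 6 were lower and none higher, including Fasl at -0.99, Srgn at -0.52 and Nkg7 at -0.22. Inhibitory receptors and exhaustion factors had 3 of 13 lower and none higher: Nr4a3 at -0.59, Lag3 at -0.56 and Tox at -0.53. Pdcd1 was at -0.07 and was not called. Selplg, the gene of the P-selectin ligand PSGL-1, stood at 475, 438, 500.1 and 493 CPM in other T cells and at 394, 367, 343 and 425 CPM in proliferating T cells, lower in all 4 libraries (-0.35, adjusted p 0.00623).

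RNA of other cells differed between the sides as well. The 15 macrophage markers summed to 920, 1851, 2000.2 and 1261 CPM in other T cells, led by Apoe in shNC 1 and by Ctss elsewhere, and to 434, 572, 940 and 1333 CPM in proliferating T cells. Of 13 tested markers 9 were lower and none higher, with Apoe at -1.49 and Cxcl2, a further myeloid chemokine, at -1.34. Cxcl2 lost its call with DESeq2 (-1.11, adjusted p 0.107), after thinning (-0.87, adjusted p 0.108) and with CD8 cells only (-0.31, adjusted p 0.354). Igkc of B cells was called higher (3.76) on 2 cells, which held 4112 of 4168 UMIs in shNC 1 and 4652 of 4685 in shSELP 2. How far admixed RNA shapes the other differences was not tested. DESeq2 called 872 genes. Proliferating T cells were also deeper (median 11954 against 5022.5 UMIs), and thinning every cell to 2000 UMIs left 466 called, of which 449 were called at full depth.

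Promoters of the G2/M genes often hold the repressor element of cell cycle genes known as CHR, spelled TTTGAA. In the 300 bases around the start of 45 of the 54 genes, taken from RefSeq GRCm38.p6 and read on both strands, 66.7% held this word against 18.1% of 27025 promoters, and 53.3% held it together with CCAAT against 7.12%. The E2F word (TTT, then C or G, then C or G, then CGC) was in 11.8% of 755 promoters of genes called higher, in 1.71% of 700 promoters of genes called lower and in 4.75% of the 6183 promoters found for the 7790 genes past the filter, beside 2.32% of all promoters. Among those 6183 promoters 12.2% held the CHR word. The CHR word was in 16.0% of promoters of genes called higher and 11.9% of those called lower, and the E2F word in 4.44% of G2/M promoters. Only 31 of the 43 S phase genes were found, of which 35.5% held the E2F word and 16.1% the CHR word. A match is only a description of the sequence, and binding was not measured. E2f8 (chr7:48881547-48881846, minus strand, GRCm38.p6) had 0 CPM in other T cells and a mean of 18.8 CPM in proliferating T cells, with 1 CHR and 1 CCAAT.
E2f8: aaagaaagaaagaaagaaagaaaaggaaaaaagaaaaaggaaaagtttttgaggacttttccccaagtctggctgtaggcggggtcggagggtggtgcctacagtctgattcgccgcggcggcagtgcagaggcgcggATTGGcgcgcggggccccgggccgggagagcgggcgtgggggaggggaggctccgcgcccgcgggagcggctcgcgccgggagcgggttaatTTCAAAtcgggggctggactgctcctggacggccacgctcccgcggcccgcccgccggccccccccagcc
Cdca5 (chr19:6084847-6085146, plus strand, GRCm38.p6) had means of 0.164 and 43.2 CPM and holds 2 CHR words.
Cdca5: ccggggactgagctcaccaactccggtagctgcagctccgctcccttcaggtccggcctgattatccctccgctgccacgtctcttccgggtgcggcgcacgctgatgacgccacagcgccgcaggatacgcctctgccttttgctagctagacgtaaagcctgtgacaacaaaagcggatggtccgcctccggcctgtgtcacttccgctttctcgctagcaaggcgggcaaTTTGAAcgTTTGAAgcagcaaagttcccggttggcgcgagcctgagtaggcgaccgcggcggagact
Espl1 (chr15:102296043-102296342, plus strand, GRCm38.p6), the protease that parts sister chromatids, had means of 0.187 and 18.5 CPM, with 1 CHR and 1 CCAAT.
Espl1: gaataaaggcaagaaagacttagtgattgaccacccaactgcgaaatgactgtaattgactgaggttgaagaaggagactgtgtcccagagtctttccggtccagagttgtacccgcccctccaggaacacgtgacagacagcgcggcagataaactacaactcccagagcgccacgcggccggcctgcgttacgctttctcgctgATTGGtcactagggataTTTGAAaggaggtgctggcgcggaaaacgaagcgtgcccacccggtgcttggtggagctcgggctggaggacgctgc
Nusap1 (chr2:119618048-119618347, plus strand, GRCm38.p6), a spindle protein, had means of 2.53 and 152 CPM and none of the 3 words.
Nusap1: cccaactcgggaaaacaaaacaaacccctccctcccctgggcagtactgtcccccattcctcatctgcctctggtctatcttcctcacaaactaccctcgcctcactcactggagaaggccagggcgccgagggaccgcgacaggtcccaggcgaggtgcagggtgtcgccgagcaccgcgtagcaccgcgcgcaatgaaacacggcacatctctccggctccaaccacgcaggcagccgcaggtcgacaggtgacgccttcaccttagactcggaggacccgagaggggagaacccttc

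Proliferating CD8 and CD4 cells differed in effector genes among others, and few genes of the cell cycle lists were called between them. The CD8 class carried granzymes, natural killer receptors and Ccl5, and the CD4 class carried Csf2, Ifng and ligands of the tumor necrosis factor family. Of 5050 genes tested, 137 were higher (2.71%) and 208 lower (4.12%) in the 212 CD8 cells than in the 103 CD4 cells of the same libraries. None of 37 tested S phase genes was called by edgeR's test, and of 42 G2/M genes only Cks2 was, at -0.58, with Ccnd2 called lower among the cyclins. Of the 42 G2/M genes 33 had negative values (median -0.20), while 28 of the 37 S phase genes had positive values (median 0.20). For 12 of the 42 G2/M genes the CD8 sum lay below the CD4 sum in every library. Across all genes 992 had an unadjusted p under 0.05. Without 1 library the number called was 174 (without shNC 2), 178 (without shSELP 2) or 552 (without shSELP 1).

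Granzymes marked the CD8 class. Gzmb stood at 152, 321, 10.7 and 101 CPM in the CD4 class and at 4456, 5179, 4387 and 3381 CPM in the CD8 class (log2 fold change 5.13, adjusted p 5.11e-06). Gzma stood at 5.07, 3.65, 0 and 1193 CPM against 843, 3367, 3539 and 2220 CPM (4.81, adjusted p 0.0128). The CD4 class of shSELP 2 is the only CD4 sum with much Gzma, and it lies above the CD8 class of shNC 1. Gzma lost its call without shNC 2 (3.89, adjusted p 0.0636) and at 5 or more mitotic UMIs (3.60, adjusted p 0.178). Gzmk went from 0, 3.65, 5.36 and 1.71 CPM to 84.7, 85.2, 169 and 66.9 CPM (5.17). Of 14 tested cytotoxic genes 6 were higher, with Prf1 at 1.12 and Nkg7 at 0.93, and 2 were lower, Gzme at -3.38 and Srgn at -0.52.

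Further genes were higher in the CD8 class, but the memory, homing and costimulatory lists held called genes of both directions. Of 7 tested naive and memory genes 3 were higher and 2 lower, and of 9 homing and adhesion genes 1 was higher and 1 lower. Of 12 costimulatory receptor genes 3 were higher and 5 lower. Ly6c2, carried by effector and memory CD8 cells, went from 5.07, 25.5, 0 and 27.3 CPM to 204, 1334, 447 and 609.6 CPM (5.29, adjusted p 8e-07). Ccl5 stood at 122, 135, 59.0 and 234 CPM against 1590.1, 1984, 8111 and 2128 CPM (4.32). In both cases every CD8 value is above every CD4 value. Tcrg-C2, a gamma chain segment, was higher by 4.05, Fgl2 by 3.40, Slc16a6 by 1.98, the protease gene Ctsw by 1.89 and Zyg11b by 1.86. Of 5 tested natural killer cell markers 3 were higher, the receptor genes Klrk1 (1.74), Klrd1 (1.25) and Klre1. Cd27, a costimulator of memory cells, was higher by 1.64 and the factor Irf8 by 1.81. Selplg stood at 309, 292, 145 and 342 CPM against 405, 427, 428 and 488 CPM (0.78, adjusted p 0.0188), high in all 4 CD8 sums.

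**Figure D4:**
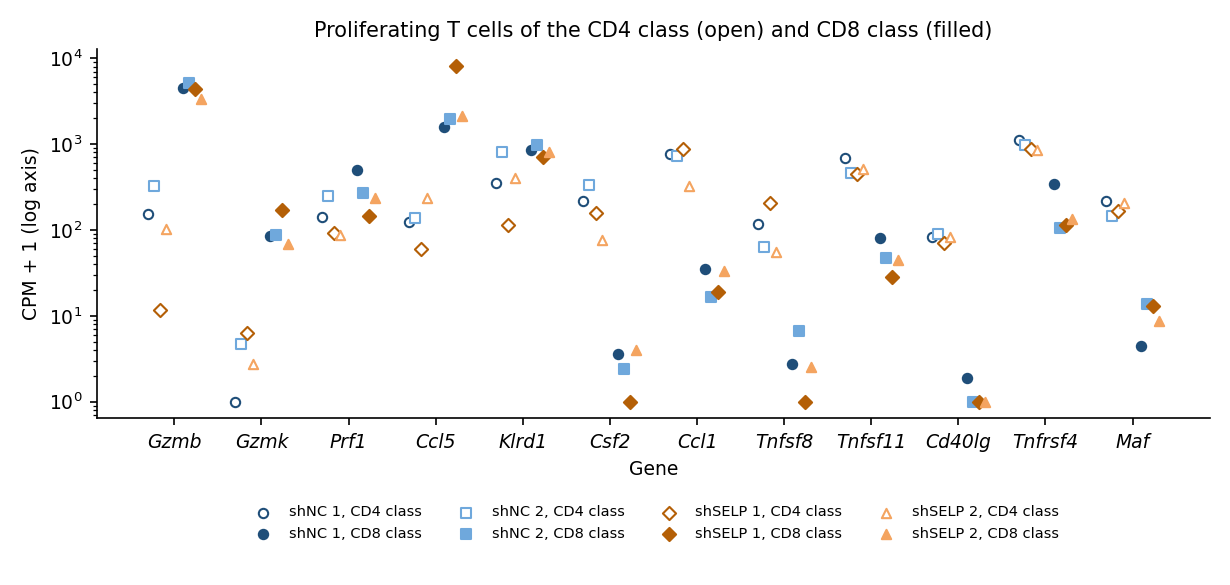
Levels of 12 genes in proliferating T cells of the CD4 and CD8 classes by library. Gzmb is at 10.7 to 321 CPM in the CD4 class and 3381 to 5179 CPM in the CD8 class.

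The proliferating CD4 cells were rich in secreted and membrane-bound signals. Csf2, which codes for the myeloid growth factor GM-CSF, stood at 218, 329, 155 and 75.2 CPM in the CD4 class and at 2.59, 1.40, 0 and 3.04 CPM in the CD8 class (-6.36, adjusted p 9.01e-07). Ifng stood at 1855, 1296, 2182 and 1458 CPM against 330.3, 205, 202 and 404 CPM (-2.48, adjusted p 1.19e-05). The classes do not overlap for either gene, and all 4 CD4 sums are the high ones. Cd40lg stood at 81.1, 87.6, 69.7 and 82.1 CPM in the CD4 class and rested on 1 UMI in the CD8 class. Tnfsf11, which codes for RANKL, stood at 694, 460, 450.3 and 511 CPM against 78.7, 46.1, 27.2 and 44.1 CPM (-3.32). Of 13 tested cytokine genes 8 were lower in the CD8 class and 1 was higher, with Lta at -3.01, Ccl3 at -2.13 and Tnf at -1.07.

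Transcription factors divided the classes as well. Maf stood at 218, 142, 166 and 205 CPM in the CD4 class and at 3.46, 12.6, 12.1 and 7.60 CPM in the CD8 class (-4.41). Rora was at -1.54, Batf at -1.27 and Prdm1 at -1.14, whereas Runx3, the factor of the CD8 lineage, was at 0.79. Of 15 tested effector factors 4 were higher and 9 lower. Penk, the precursor of enkephalins, was at -6.07 in the CD8 class, Lgals7 at -5.55, Tnfsf8 at -5.09, the chemokine gene Ccl1 at -4.52, Timp2 at -3.87 and the decoy receptor Il1r2 at -3.72. Tnfrsf4, which codes for OX40, was at -2.51, Il2ra at -0.96, Hk2 of glycolysis at -1.88 and Hif1a at -1.27. Macrophage markers summed to 421, 336, 359 and 2364 CPM in the CD4 class and 438, 534, 1219 and 459 CPM in the CD8 class, and none of 7 tested was called. The CD4 class of shSELP 2 and the CD8 class of shSELP 1 are the high ones, and their effect was not tested.

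Proliferating T cells without and with Foxp3 also differed in effector genes among others, with few genes of the cell cycle lists called. The cells without Foxp3 carried granzymes, Ifng and receptors of natural killer cells, and the Foxp3-positive cells carried more Il10 and Ctla4. Of 5330 genes tested 203 were higher (3.81%) and 211 lower (3.96%) in the 337 cells than in 64 Foxp3-positive cells (14, 18, 10 and 22). None of 40 S phase genes, 42 G2/M genes or 15 nucleotide synthesis genes was called by edgeR's test, beside 1021 genes with an unadjusted p under 0.05 in all. Of the 40 S phase genes 28 had negative values (median -0.16). For 12 of the 40 the sum without Foxp3 lay below the Foxp3-positive sum in every library. Among cyclins and chromatin genes Btg2 and H2afx were called higher and Ccnd2 and H2afz lower. Without shSELP 2 the number called was 238. The Foxp3-positive cells seldom carry Cd8a (142, 8.28, 0 and 7.41 CPM against 726, 546, 687 and 461 CPM, log2 4.24). The values below compare all classes together. With only the CD4 class on both sides, 214 of 2839 tested genes were called, 163 of them among the 414 called here. How far class shapes the value of each gene was not tested.

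Effector genes were high in the cells without Foxp3. Ifng stood at 121, 78.7, 39.5 and 76.6 CPM in Foxp3-positive cells and at 551, 468, 954 and 868 CPM in the cells without Foxp3 (3.14). Gzmf stood at 5.26, 8.28, 0 and 2.47 CPM against 468, 2403, 35.6 and 130.4 CPM (7.49, adjusted p 7.5e-09). Both genes are high in all 4 sums without Foxp3, without overlap. Of 13 tested cytotoxic genes 10 were higher, with Gzmc at 5.84, Gzma at 4.29 and Prf1 at 2.48, and none was lower. Gzmb was higher by only 0.49 (adjusted p 0.0442), and the Foxp3-positive cells held 2058, 2468, 2006 and 1942 CPM of it. The CD4 class without Foxp3, described above, held less Gzmb than these Foxp3-positive cells in every library. Its high values without Foxp3 lay in the CD8 class. Ifitm1 was higher by 7.28, Klre1 by 5.33, Nrgn by 5.05, Ccl1 by 4.54, Klrd1 by 4.40 and Ly6c2 by 4.31. Inhibitory receptor and exhaustion genes had 6 of 10 higher, with the receptor gene Pdcd1 at 2.00 and the signalling regulator Rgs16 at 2.75, while Ctla4 was at -1.21.

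Il10, Izumo1r and Maf were among the genes low in the cells without Foxp3. Il10 stood at 52.6, 58.0, 94.75 and 37.1 CPM in Foxp3-positive cells and at 1.47, 2.61, 0 and 1.52 CPM in the others (-4.88). Izumo1r, the folate receptor of regulatory cells, stood at 242, 294, 513 and 398 CPM against 24.3, 18.3, 24.9 and 16.0 CPM (-3.99, adjusted p 2.54e-08). Maf stood at 369, 501, 679 and 553 CPM against 36.8, 49.6, 107 and 108 CPM (-2.81). For these 3 genes every Foxp3-positive value is above every other value. Ikzf2 was at -2.32, Il2ra at -2.16, Tnfrsf4 at -1.95, Tnfrsf18 at -1.62 and Klrg1 at -5.33. Of 11 costimulatory receptor genes 4 were lower (Icos, Tnfrsf18, Tnfrsf4 and Tnfrsf9), Cd226 was higher and 6 were not called. Bmyc was at -2.89, Ccr2 at -2.77, Ass1 at -2.57, Myb at -2.56, Arl5c at -2.55, Cystm1 at -2.50, Casp6 at -2.44 and Lpcat1 at -2.43. With only the CD4 class on both sides, which left 5, 8, 8 and 18 Foxp3-positive cells, 214 genes were called, 163 of them shared.

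Other groups differed along with the effector genes. Macrophage markers summed to 690, 418, 482 and 410.1 CPM in Foxp3-positive cells, led by Apoe in shNC 1 and shSELP 1 and by Ctss elsewhere, with Adgre1 at 0 in all 4 sums. In the cells without Foxp3 they summed to 434, 572, 940 and 1333 CPM, which overlaps. Of 6 tested markers 4 were called higher (C1qa, C1qb, Fcer1g and Lyz2; median 1.49) and none lower. Heat shock and immediate-early genes had 7 of 13 higher, which were Atf3, Egr1, Fos, Fosb, Hspa1a, Ier2 and Jun (median 1.02), while Hsp90aa1 was called lower. Their relation to the effector genes was not tested.

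The hairpin groups differed in few genes within proliferating T cells, and those few include macrophage RNA. Of 7796 genes tested 4 were called by edgeR's quasi-likelihood test (0.0513%), all higher in shSELP, and DESeq2 called 14 (8 higher and 6 lower). At an unadjusted p under 0.05 there were 765 genes. Without shNC 1 the number was 130, without shNC 2 it was 278, without shSELP 1 it was 26 and without shSELP 2 it was 19. In each of these fits 1 group has a single library, so the other group alone gives the spread and the counts cannot be set against the 4. With replicate pairs as a block 57 genes were called, 30 higher and 27 lower. No gene was called with crossed replicate pairs as a block, where 722 had an unadjusted p under 0.05, or in the CD4 class alone, where 135 had. The CD8 class alone had 0 higher and 3 lower, and cells with at least 5 mitotic UMIs had 0 higher and 5 lower, none of them among the 4. The median standard error of a log2 fold change was 0.289, and 0.174 for genes of at least 50 CPM. Both shSELP values lay above both shNC values for 21.8% of genes and below them for 19.5%.

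The complement genes C1qa, C1qb and C1qc, which macrophages and microglia express, rose in the shSELP sums. C1qa stood at 17.7, 23.5, 110.4 and 166 CPM (log2 fold change 2.78, adjusted p 0.0124). C1qc stood at 19.9, 12.2, 97.9 and 86.9 CPM (2.47) and C1qb at 26.5, 29.6, 112 and 104 CPM (1.92), both with the same adjusted p. For all 3 genes both shSELP libraries are high, without overlap. In shSELP 1 a pair of cells held 150 of 180 C1q UMIs, and in shSELP 2 a pair held 382 of 469. A C1q UMI was found in 58.0, 42.7, 42.9 and 57.6% of proliferating T cells. With the 27 cells carrying at least 3 myeloid UMIs left out, none of the 3 genes was called, with C1qa at 0.36, C1qc at 0.11 and C1qb at -0.46. Leaving out Scrublet calls also ended the 3 calls, with C1qa at 1.66, C1qc at 1.62 and C1qb at 1.14. Without the top 5% of scores the values were 0.88, 0.89 and 0.25, again not called.

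The 15 macrophage markers, with the C1q genes among them, summed to 434 CPM in shNC 1, led by Apoe at 110, to 572 CPM in shNC 2, led by Fcer1g at 185 with Adgre1 at 0, to 940 CPM in shSELP 1, led by Fcer1g at 182, and to 1333 CPM in shSELP 2, led by Lyz2 at 352. Of 12 tested markers the 3 C1q genes were the only ones called. Of the 12, 8 including these 3 had both shSELP values above both shNC values, beside 21.8% of all tested genes. How this RNA came into the sums was not tested. Lgals7, which codes for galectin-7, stood at 11.8, 15.7, 101 and 83.9 CPM (2.72, adjusted p 0.0124), high in both shSELP libraries. Without the cells carrying myeloid UMIs Lgals7 had a similar value but was not called (2.39, adjusted p 0.0628). Nor was it called at 3 or more mitotic UMIs (2.04, adjusted p 0.363) or at 5 or more (2.72, adjusted p 0.328). In the CD4 class alone it stood at 1.92 and was not called (adjusted p 0.999). Its UMIs lay in 8, 10, 13 and 20 cells, and the top cell held 22 of 57 in shSELP 1 and 52 of 110 in shSELP 2. Lgals7 belongs to the CD4 class here (76.0, 47.5, 289 and 185 CPM against 0.865, 4.19, 3.02 and 1.52 CPM), whose share is 19, 28.1, 26.8 and 47.8% of the cells.

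No list of T cell genes had a called gene between the hairpin groups, so their values are given without a direction being claimed. The S phase list had 38 of 43 genes with negative values (median -0.27, against -0.01 over all genes). Of the 43 genes 22 had both shSELP values below both shNC values, beside 19.5% of all tested genes. Glycolysis genes summed to 8213, 6052, 4601 and 5911 CPM, with 16 of 17 values negative and a median of -0.59. Both shSELP sums are below both shNC sums. Ldha stood at 1627, 1123, 797 and 924 CPM (-0.69, adjusted p 0.322), and Hif1a at 297, 319, 484 and 512.5 CPM (0.68). Nucleotide synthesis had 12 of 19 genes with both shSELP values below (median -0.33). Between these sums the share of cells above the cycle level (83.0, 70.8, 57.1 and 52.2%) and the share of the CD8 class (80.0, 60.7, 64.3 and 45.7%) differ too, and their effect was not tested.

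Of 13 cytokine genes none was called, and 7 had both shSELP values above both shNC values (median 0.73). Ifng stood at 551, 468, 954 and 868 CPM (0.82, standard error 0.13, adjusted p 0.0951), with both shSELP libraries high. Tnf stood at 22.1, 34.0, 48.1 and 62.5 CPM and Ccl4 at 337, 232, 427 and 522 CPM. Neither was called. Cytotoxic genes had 2 of 15 above and 5 below (median -0.09). Over all tested genes 21.8% had both shSELP values above both shNC values and 19.5% below. Prf1 stood at 440.4, 229, 121 and 161 CPM (-1.24, adjusted p 0.263), and Gzmb had a log2 fold change of -0.64 (adjusted p 0.413). Selplg stood at 394, 367, 343 and 425 CPM, with overlap (0.00, adjusted p 0.999). Selp itself had 17, 25, 21 and 21 UMIs over all deposited cells of a library and 0 in the proliferating T cells, so these cells give no reading of the knockdown.

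The response to the shSELP tumor was not the same in proliferating and other T cells for a few genes. An interaction test asked whether the log2 difference between shSELP and shNC differs between proliferating and other T cells, and called 10 of 7790 genes (0.128%), while DESeq2 called 3 of them. Chemokine and cytokine genes were among the 10. In fits with a single library on 1 side the number was 45 (without shNC 1), 25 (without shNC 2), 60 (without shSELP 1) or 64 (without shSELP 2).

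Ifng and the chemokines Ccl3 and Ccl4 had opposite directions on the 2 sides. Ifng stood at 551, 468, 954 and 868 CPM in proliferating T cells and at 1097, 1162, 536 and 991 CPM in other T cells, a difference of 1.44 (adjusted p 0.0028). Ccl3 stood at 214, 151, 306 and 313 CPM against 818, 579, 352 and 239 CPM (2.04, adjusted p 2.4e-05). Ccl4 stood at 337, 232, 427 and 522 CPM against 1857, 757, 769 and 632 CPM (1.55, adjusted p 0.00217). Proliferating cells of shSELP are high and other T cells of shSELP are mostly low. With Scrublet calls left out neither Ifng (1.04, adjusted p 0.425) nor Ccl3 (1.02, adjusted p 0.179) was called. With only CD8 cells Ccl4 was called again (1.22), but Ifng (0.76) and Ccl3 (0.96, adjusted p 0.617) were not. At 5 or more mitotic UMIs Ccl3 (0.55, adjusted p 0.987) and Ccl4 (1.16, adjusted p 0.616) lost their calls, and DESeq2 called neither Ifng (1.45, adjusted p 0.0954) nor Ccl4 (1.52, adjusted p 0.0639).

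For some of the other genes called, a single cell held much of the RNA. Gzmf, a granzyme gene, stood at 468, 2403, 35.6 and 130.4 CPM in proliferating T cells and at 303, 246, 452 and 558 CPM in other T cells (-4.57, adjusted p 0.000654), and 1 cell of shNC 1 held 579 of its 636 UMIs. Without shNC 1 the Gzmf value was -5.87, and with only CD8 cells the gene was called at -5.08. It was not called with DESeq2 (-4.83, adjusted p 0.477) or without the top 5% of Scrublet scores (-3.23, adjusted p 0.699). Cst3 stood at 749, 1486, 910 and 598 CPM against 283, 383, 924 and 595 CPM (-1.71, adjusted p 2.86e-05). Maf stood at 36.8, 49.6, 107 and 108 CPM against 149.9, 149.8, 129 and 179 CPM (1.25, adjusted p 0.0429). The shNC proliferating sums are the lowest for Maf, the shSELP proliferating sums lie between, and among CD8 cells its value turned to -0.08. Maf was not called with DESeq2 (1.28), after thinning (0.81, adjusted p 0.809) or at 5 or more mitotic UMIs (1.20, adjusted p 0.185). Its value without shNC 1 was 1.02. Penk stood at 31.7, 73.1, 192 and 132 CPM against 97.6, 166, 69.5 and 98.5 CPM (2.22), where 1 cell held 69 of 108 UMIs in shSELP 1 and 1 held 151 of 173 in shSELP 2. Lyz2 of macrophages stood at 36.1, 42.7, 26.7 and 352 CPM against 95.02, 163, 45.5 and 160.2 CPM (2.45), where 1 cell held 376 of 461 UMIs in shSELP 2. So the high Lyz2 value belongs to 1 library. Of 13 tested macrophage markers 12 had positive values in the interaction test (median 1.33), with Lyz2 the only one called. Lgals7 differed by 2.65 and the scarce Serpinb9b by -3.52. Lgals7 was not called with DESeq2 (2.91, adjusted p 0.163) or without cells with myeloid UMIs (2.31, adjusted p 0.384). It was not called after thinning (2.11, adjusted p 0.348) or at 5 or more mitotic UMIs (2.59, adjusted p 0.745) either. Leaving out Scrublet calls turned Lyz2 to -0.25. Cst3 was not called with only CD8 cells (-0.43), after thinning (-0.80) or at 5 or more mitotic UMIs (-1.62, adjusted p 0.528). Penk was not called after thinning (0.41), without cells with myeloid UMIs (1.08) or at 5 or more mitotic UMIs (1.81, adjusted p 0.987).

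These values come from 2 libraries per group, and libraries of 1 group may share a pool of brains, so the p-values measure a spread that may be technical. The 337 cells were chosen on measured UMIs, and 148 of them had only 2 to 4 mitotic UMIs, of which 27.7% stood above the cycle level of nearly all other T cells. Cell classes rest on single Cd4 or Cd8a UMIs in some cells. Protein and position in the tumor were not analysed here, and receptor V segments were read in few cells. RNA of macrophages is present in the T cells of all libraries.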

How the data were processed

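The authors deposited counts of UMIs for each gene and cell, and these counts were used as given. Reads had been aligned by the submitters with Cell Ranger 1.3 to mm10. Column prefixes gave the library. Members and gene lists were chosen with earlier results of these data known. Cells with fewer than 500 genes were left out, and no cell passed a mitochondrial share of 5.00%, under the 10% limit of the methods. Counts were summed per library and cell set, filtered by filterByExpr, scaled by TMM and tested with edgeR's quasi-likelihood test, with Benjamini-Hochberg adjustment at 0.05. Comparisons within libraries had library as a block. In the comparison with other T cells the rule genes and the 4 cell cycle lists were kept out of the adjustment. Shares were compared by an exact permutation test, with Clopper-Pearson 95% intervals.

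The genes named first are, for each direction, the 10 called genes of largest log2 fold change once their mean level reaches 50 CPM and the libraries do not overlap (without a block) or all point the same way (with one; the interaction test has no such condition), and list genes were named for their known roles. A gene was counted as above or below when both libraries of a group passed both of the other. Between cell sets of the same libraries, it was counted when every library pointed the same way. CPM are UMIs of a gene divided by all UMIs of the sum and scaled alike for every sum.

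Alternatives tried were DESeq2, no filter, a 10% mitochondrial limit that removes no cell, a replicate block and its crossed form, each library left out, Scrublet calls left out (61 cells, expected rate 0.05), the top 5% of scores left out, cells with 3 myeloid UMIs left out, thinning to 2000 UMIs, other UMI limits, and single classes. Promoter words were counted in the first listed RefSeq GRCm38.p6 promoter of each gene.

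Tools: R 4.3.3, edgeR 4.0.16, limma 3.58.1, DESeq2 1.42.0, Python 3.11.15, NumPy 2.4.6, SciPy 1.17.1, pandas 2.3.3, Scanpy 1.11.5, matplotlib 3.10.9.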

Additional observations from a re-analysis of the deposited data

Results flagged for a closer look

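An interaction test marked 10 genes whose log2 difference between shSELP and shNC differed between proliferating and other T cells. The difference, proliferating minus other, was -4.57 for Gzmf, -3.52 for Serpinb9b and -1.71 for Cst3. It was 1.25 for Maf, 1.44 for Ifng, 1.55 for Ccl4 and 2.04 for Ccl3. It was 2.22 for Penk, 2.45 for Lyz2 and 2.65 for Lgals7. The cause was not tested.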

How the results depend on the processing

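The number of genes called between shSELP and shNC in proliferating T cells, 4 in the report, was 14 with DESeq2, 228 with no filter on low counts, 57 with a replicate block and 0 with the crossed replicate block, where 722 genes had an unadjusted p under 0.05. Leaving out 1 library gave 19 to 278. It was 2 without Scrublet calls, 2 without cells with myeloid UMIs, 1 after thinning, 13 with at least 3 mitotic UMIs, 5 with at least 5, 3 with the CD8 class only and 0 with the CD4 class only. Deviations of the paired replicates had a correlation of -0.097 over all tested genes.

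Against other T cells DESeq2 called 872 genes and thinning gave 466. CD8 against CD4 gave 188 with DESeq2, 663 with no filter, 78 after thinning, 145 with at least 5 mitotic UMIs and 174 to 552 without 1 library. Against Foxp3-positive cells 634 genes were called with no filter, 120 after thinning, 214 with the CD4 class only and 238 to 461 without 1 library. The interaction test called 3 genes with DESeq2, 81 with no filter, 4 with at least 5 mitotic UMIs and 25 to 64 without 1 library.

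The difference in the proliferating share turned to 0.176 points when 1 mitotic UMI was accepted. C1qb turned to -0.46 without cells with myeloid UMIs. In the interaction test Lyz2 turned to -0.25 without Scrublet calls and -0.88 without the top 5% of scores, and Maf to -0.0832 with CD8 cells only.

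Among named genes the direction and the call were both kept in 37 of 63 alternatives between hairpin groups, 276 of 279 against other T cells, 242 of 244 between classes, 238 of 238 against Foxp3-positive cells and 81 of 115 in the interaction test. Each gene's count includes 1 alternative, a limit of 10% mitochondrial UMIs, that removes no cell and so returns the same value. The top 5% of scores, single classes in comparisons across classes, the limit of 5 UMIs and the crossed block were added after seeing the data. The cause of each change was not tested.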

Other observations

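Further gene groups set proliferating T cells apart from other T cells. Effector transcription factors had 1 of 18 genes higher and 9 lower in the proliferating cells (median -0.40). Maf was at -1.15 and Myc at -0.87, while Irf8 was higher by 0.67. Cytokine receptor and signalling genes had 8 of 20 lower and none higher (median -0.42). Among 14 heat shock and immediate-early genes 7 were lower, with Junb at -0.70 and Dusp1 at -0.93, and 2 chaperone genes were higher, Hsp90aa1 at 0.40 and Hspa8 at 0.34.

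Some genes had widely spaced values between the hairpin groups without being called. Hspa1a, a chaperone gene of stressed cells, stood at 8.84, 54.9, 212 and 181 CPM in the proliferating T cells of shNC 1, shNC 2, shSELP 1 and shSELP 2. H19, which the tumor cells express, stood at 73.6, 38.3, 5.34 and 2.29 CPM (adjusted p 0.0588), and 1 cell held 86 of 100 UMIs in shNC 1 and 1 held 32 of 44 in shNC 2. Both shNC libraries are high for H19 and low for Hspa1a.

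A beta chain V segment could be read in 13 of 100, 13 of 89, 6 of 56 and 17 of 92 proliferating T cells. Trbv19 was found in 6 of the 10 such CD4 cells of shSELP 2, Trbv3 in 5 of the 11 such CD8 cells of shNC 1 and Trbv26 in 3 of the 3 such CD8 cells of shSELP 1. No test was made on these few cells.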
